A study of Rattus norvegicus with 8 samples.

Results

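The miRNAs described here are 9 mature miRNAs of white blood cells and of inflammation, measured in whole rat kidney 1 or 2 days after surgery. They are rno-miR-142-3p, rno-miR-142-5p, rno-miR-223-3p, rno-miR-150-5p, rno-miR-342-3p, rno-miR-342-5p, rno-miR-146a-5p, rno-miR-146b-5p and rno-miR-155-5p, written below without the rat prefix and picked by name from the 758 miRNAs of the array. The tested kidneys came from 4 male rats of the inbred strain F344/NSlc, aged 10 weeks, whose other kidney had been removed, labelled as taken on day 2. They were set against kidneys of 4 sham-operated males of the same strain and age, labelled as taken on day 1. All 8 samples are labelled as right kidney, and the study's design text names 2 days for the residual kidneys, so surgery and time after it cannot be told apart if the labels are right. Each array was taken as 1 rat, and where arrays of a group did not come from separate rats the p-values measure a technical spread.

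A miRNA is a short RNA that guides an Argonaute protein to messenger RNAs through its seed, bases 2 to 8 counted from its 5′ end, and represses them. Cells of the blood lineage express some miRNAs that kidney epithelium has little of. miR-142 is made in nearly all of them, miR-223 mostly in neutrophils and monocytes, and miR-150 and miR-342 mostly in lymphocytes. miR-146a and miR-155 are induced by NF-kB, the transcription factor at the end of Toll-like receptor signalling, in leukocytes and in some other cells. miR-146a and its relative miR-146b damp that pathway through the adaptor TRAF6 and the kinase IRAK1, whereas miR-155 supports inflammatory responses in part by repressing the brakes SOCS1 and SHIP1. In a kidney these miRNAs can report leukocytes that live in the tissue, leukocytes in its blood, any inflammation, and expression in other cells of the kidney. In such bulk RNA, fewer cells of a type and less of a miRNA per cell cannot be told apart.

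RefSeq's sequence table for rat build GRCr8 holds 8 of the 9 mature sequences, which have 7 different seeds. They are shown with the seed in capitals, because the seed decides which members share targets.
miR-142-3p: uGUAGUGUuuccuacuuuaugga
miR-142-5p: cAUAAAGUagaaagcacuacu
miR-223-3p: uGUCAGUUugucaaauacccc
miR-342-3p: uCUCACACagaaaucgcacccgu
miR-342-5p: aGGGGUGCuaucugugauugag
miR-146a-5p: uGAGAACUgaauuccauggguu
miR-146b-5p: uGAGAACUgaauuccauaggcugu
miR-155-5p: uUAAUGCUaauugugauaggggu
The only members with the same seed are miR-146a-5p and miR-146b-5p, which are identical at 20 positions. Counted from the 5′ end with miR-146a-5p first, they differ by G18A and U21C, and miR-146b-5p is 2 bases longer. miR-150-5p is known here by its longer probe of 17 bases, the DNA strand on the array that pairs with it.
miR-150-5p probe: cactggtacaagggttg
The arms of miR-142 and of miR-342 are cut from a single hairpin each, shown with the 5p arm and then the 3p arm in capitals, because the arms were measured apart.
Mir142: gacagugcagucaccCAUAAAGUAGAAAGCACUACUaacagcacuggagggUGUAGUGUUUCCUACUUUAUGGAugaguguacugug
Mir342: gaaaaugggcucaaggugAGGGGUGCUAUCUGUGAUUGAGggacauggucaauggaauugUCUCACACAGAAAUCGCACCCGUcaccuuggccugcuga

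In GRCr8, the hairpin of miR-142 lies at chr10:73055104-73055190 on the plus strand, within the span of the protein-coding gene Tspoap1, and that of miR-342 at chr6:133329655-133329753 on the plus strand, within the span of Evl and of a lncRNA gene. Mature miR-223-3p lies at chrX:65151450-65151470, in a lncRNA gene, and miR-155-5p at chr11:37261117-37261139, in its host lncRNA gene Mir155hg. miR-146a-5p lies at chr10:28350053-28350074 on the minus strand, in a lncRNA gene, and miR-146b-5p at chr1:255144874-255144897. The longer miR-150-5p probe is placed by the deposited files at chr1:95596098-95596113 in build rn4. With both ends counted, as above, that span is shorter than the 17 bases of the probe, and how those files count was not checked.

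Every member had probes of at least 2 lengths on the array, and for the 8 with a sequence each probe pairs from the 3′ end of the miRNA. The 2 probes of miR-142-3p and of miR-223-3p pair with all 7 seed bases, those of miR-342-3p with 1 and 2 of them, and those of miR-155-5p with 2 and 3. The miR-146a-5p probes pair with bases 4 to 22 or 3 to 22, and the miR-146b-5p probes with bases 5 to 24 or 4 to 24, so both sets cover the positions at which the relatives differ. The files hold no test of cross-hybridisation, and signal shared between miR-146a-5p and miR-146b-5p was not tested.

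All 8 arrays lay on 1 slide scanned once, with the nephrectomized arrays in its row 2 and the sham arrays in its row 1 by the array positions in the file headers, so slide row and group cannot be told apart. The nephrectomized arrays detected 224 to 230 miRNAs and the sham arrays 242 to 253. The 75th percentile of the miRNAs detected on all arrays, used for scaling, was 155 to 180 on nephrectomized arrays and 190 to 227 on sham arrays. The labelling spike-ins stood at log2 9.94 to 10.35 and 10.52 to 10.61. The tubular miRNAs miR-192-5p, miR-194-5p and miR-204-5p were detected on all 8 arrays. In the values below, 1 unit of scaled signal is 1 unit of scanner brightness after this scaling, and levels are its log2. Signals of different miRNAs come from different probes, so brightness is used here to say how well a miRNA was measured, not how much of it the kidney held.

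The 7 leukocyte and inflammation miRNAs detected on every array differed little between the nephrectomized and the sham kidneys under the scaling above. The same is not shown for the dim miR-142-5p and miR-342-5p. Of the 9, 7 were detected on all 8 arrays, miR-342-5p on 6 and miR-142-5p on 1, and 8 met the filter of detection on at least 4 arrays and were tested. In limma with Benjamini-Hochberg adjustment over all 238 tested miRNAs, 0 of the 8 passed the threshold of 0.05, as did 0 of all 238 (0%). At an unadjusted limma p under 0.05 there was 1 of the 8, miR-155-5p, against 48 of the 238 (20.2%). The log2 difference, nephrectomized minus sham, was below 0 for 6 of the 8 and above 0 for 2, with a median of -0.084. Over all tested miRNAs it was below 0 for 125 and above 0 for 113, with a median of -0.0082. For the 7 members detected on every array the differences ran from -0.16 to +0.070, and their 95% intervals reached from 0.803-fold to 1.21-fold, so that larger changes of these 7 lay outside the intervals under this scaling.

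**Figure D1:**
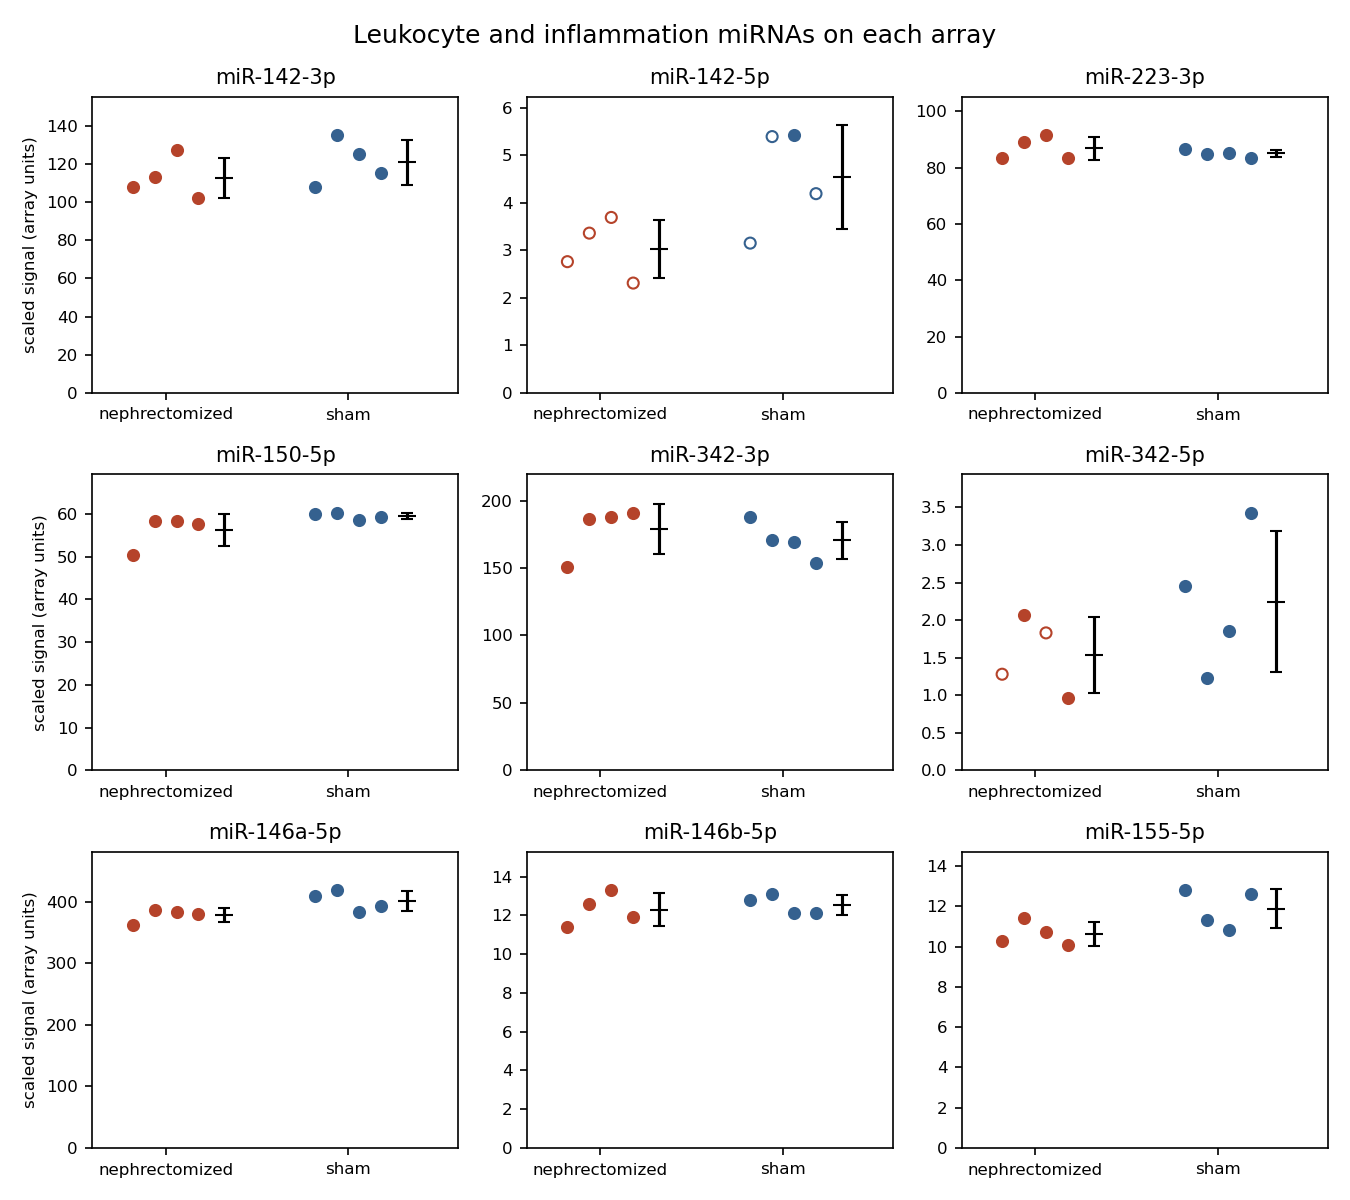
Scaled signal of each member on each array (y axes in array units, starting at 0), with nephrectomized arrays in red and sham arrays in blue; filled points are arrays on which the miRNA was detected, open points those on which it was not, and the black bars are the mean ± SD of 4 arrays. Both groups overlap for every member except miR-150-5p, whose nephrectomized arrays run from 50.5 to 58.4 and sham arrays from 58.7 to 60.3.

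miR-142 is the broadest blood-lineage marker among the members. Its 3p arm had scaled signals of 108, 113, 127 and 102 on the 4 nephrectomized arrays, against 108, 135, 125 and 115 on the sham arrays. The groups overlapped, with the highest value on a sham array and the lowest on a nephrectomized one. The log2 levels were 6.81 ± 0.13 in nephrectomized and 6.91 ± 0.14 in sham kidneys (SD, n = 4 each), a difference of -0.10 ± 0.088 (SE; limma adjusted p = 0.541). That is 0.932-fold, with a 95% interval of 0.809 to 1.07. The difference was -0.16 without nephrectomized replicate 3 and -0.046 without sham replicate 2.

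The 5p arm of miR-142 was close to the limit of detection and was called detected on 0 nephrectomized arrays and 1 sham array, that of replicate 3. Its measured signals were 2.76, 3.36, 3.69 and 2.31 on nephrectomized arrays, against 3.15, 5.39, 5.42 and 4.19 on sham arrays. The 3 highest values were all sham, and the fourth sham array lay within the range of the nephrectomized ones. It was not among the tested miRNAs. Fitted with no filter on detection, its difference was -0.57 ± 0.22 (SE), with an unadjusted limma p of 0.031 and an adjusted p of 0.256 over 356 miRNAs. Set against the sham array in its own column of the slide, each nephrectomized array was lower, by log2 differences of -0.19, -0.68, -0.55 and -0.86. Both of its probes had median spot-to-spot variation of 24.7% or more of their mean, against at most 3.33% for the probes of the 3p arm.

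miR-223-3p, the myeloid member, was the steadiest of the leukocyte markers. Its signals were 83.5, 89.1, 91.5 and 83.5 on nephrectomized arrays, against 86.7, 84.7, 85.1 and 83.5 on sham arrays. The lowest value was the same in both groups to the digits shown, and the 2 highest were nephrectomized. The log2 levels were 6.44 ± 0.067 and 6.41 ± 0.023 in nephrectomized and sham kidneys (SD, n = 4 each), a difference of +0.031 ± 0.042 (SE; limma adjusted p = 0.706). As a ratio it was 1.02-fold, with a 95% interval of 0.956 to 1.09. This sign was not stable: the difference was -0.012 in the authors' deposited values, -0.038 with quantile normalization, -0.074 when the percentile came from all miRNAs and -0.25 with no scaling (limma adjusted p = 0.0114). Without nephrectomized replicate 3 it was +0.0059.

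Among the lymphocyte members, miR-150-5p, which represses the transcription factor MYB, was the single member whose groups did not overlap. It had signals of 50.5, 58.3, 58.4 and 57.7 on nephrectomized arrays, against 60, 60.3, 58.7 and 59.2 on sham arrays. Replicate 1 of the nephrectomized kidneys was the low value, and the other 3 lay just below the sham arrays. Non-overlap with nephrectomized lower held for 10 of the 238 tested miRNAs (4.2%), and with nephrectomized higher for another 25. Of the 8 tested members, 1 was in the first set and 0 in the second. The log2 levels were 5.81 ± 0.10 and 5.90 ± 0.018 (SD, n = 4 each), and the difference of -0.085 ± 0.053 (SE) did not pass (limma adjusted p = 0.383). Without nephrectomized replicate 1 it was -0.034, and with normexp background correction +0.036. Within the columns of the slide the differences were -0.25, -0.048, -0.0055 and -0.037. All were below 0, as any pairing of arrays from groups that do not overlap must give.

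The other lymphocyte marker, miR-342-3p, had signals of 151, 186, 188 and 191 on nephrectomized arrays, against 188, 171, 169 and 154 on sham arrays. Here too nephrectomized replicate 1 stood below the other 3 of its group, while the sham arrays spread over nearly the same range. The log2 levels were 7.48 ± 0.16 and 7.41 ± 0.12 (SD, n = 4 each), and the difference was +0.070 ± 0.090 (SE; limma adjusted p = 0.695). It was +0.15 without nephrectomized replicate 1 and +0.023 without sham replicate 4. The sign turned with the scaling, to -0.035 with the percentile over all miRNAs and to -0.21 without scaling.

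miR-342-5p, the other arm of that hairpin, was detected on 2 nephrectomized arrays and on all 4 sham arrays, and those sham arrays alone met the detection filter. Its averaged signals were 1.28, 2.07, 1.83 and 0.969 on nephrectomized arrays, against 2.46, 1.23, 1.85 and 3.43 on sham arrays, with overlap. The calls did not follow these signals: the array at 0.969 was called detected and that at 1.83 was not. The 0.969 was raised to the floor before log2 was taken. They averaged 4 probes of which the 2 shortest lay below the floor of 1 unit on all 8 arrays. The longest, of 19 bases, averaged 7.98 ± 0.651 in nephrectomized and 9.27 ± 2.26 in sham kidneys (SD, n = 4 each). The difference of the averaged signal was -0.50 ± 0.34 (SE; limma adjusted p = 0.432), and it was -0.18 with the brightest probe alone. It was -0.75 without sham replicate 2 and -0.26 without sham replicate 4. In the deposited values it was -2.40 (limma adjusted p = 0.238). With the scanner software's total signal per miRNA, which stands at 0.1 for an undetected miRNA, it was -2.36 (limma adjusted p = 0.287). The part of such a fixed low value in the -2.40 was not tested. With normexp it was +0.20 (limma adjusted p = 0.00318), the opposite sign. That setting adds an offset of 50 units to every spot before scaling, far above the signals of this miRNA. The part of the offset in the +0.20 was not tested. The 95% interval of the averaged signal was wide, from 0.408-fold to 1.23-fold.

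Of the NF-kB-induced members, miR-146a-5p was the bright one. Its signals were 363, 387, 384 and 381 on nephrectomized arrays, against 409, 419, 384 and 393 on sham arrays. Sham replicate 3 was the one sham array within the nephrectomized range. The log2 levels were 8.56 ± 0.042 and 8.65 ± 0.058 (SD, n = 4 each), a difference of -0.084 ± 0.042 (SE; limma adjusted p = 0.290). The 95% interval ran from 0.882-fold to 1.01-fold. The difference was below 0 under all 24 alternatives and past the threshold in 3 of them, with limma adjusted p from 0.00821 to 0.986. Several alternatives, such as a higher floor or another filter or variance model, cannot change the difference of so bright a member. The count of 24 therefore overstates how far the sign was put to a test.

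miR-146b-5p, with the same seed, had signals of 11.4, 12.6, 13.3 and 11.9 on nephrectomized arrays, against 12.8, 13.1, 12.1 and 12.1 on sham arrays. The groups overlapped throughout, and the log2 levels were 3.62 ± 0.096 and 3.65 ± 0.059 (SD, n = 4 each). The difference was -0.029 ± 0.056 (SE; limma adjusted p = 0.791), +0.0056 without nephrectomized replicate 1, and +0.16 with normexp (limma adjusted p = 0.00481). The normexp offset of 50 units is larger than any of these signals, and its part in the +0.16 was not tested. Its probes of 20 and 21 bases gave +0.020 and -0.065.

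miR-155-5p, cut from the transcript of Mir155hg in activated lymphocytes and macrophages, had the lowest p of the 8 tested members. Its signals were 10.3, 11.4, 10.7 and 10.1 on nephrectomized arrays, against 12.8, 11.3, 10.8 and 12.6 on sham arrays. Sham replicates 1 and 4 were high, and sham replicates 2 and 3 lay within the nephrectomized range. The log2 levels were 3.41 ± 0.075 and 3.57 ± 0.12 (SD, n = 4 each), and the difference of -0.16 ± 0.069 (SE) had an unadjusted limma p of 0.0496 and an adjusted p of 0.246. As a ratio it was 0.896-fold. Its differences within the columns of the slide were -0.32, +0.011, -0.013 and -0.32. Of the other members, miR-142-3p, miR-342-5p, miR-146a-5p and miR-146b-5p were lower in nephrectomized kidneys in 3 of the 4 columns, and miR-223-3p and miR-342-3p in 1. How many of all tested miRNAs were lower in as many columns was not counted. Arrays of the same column were not treated as pairs, so these counts are description only.

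**Figure D2:**
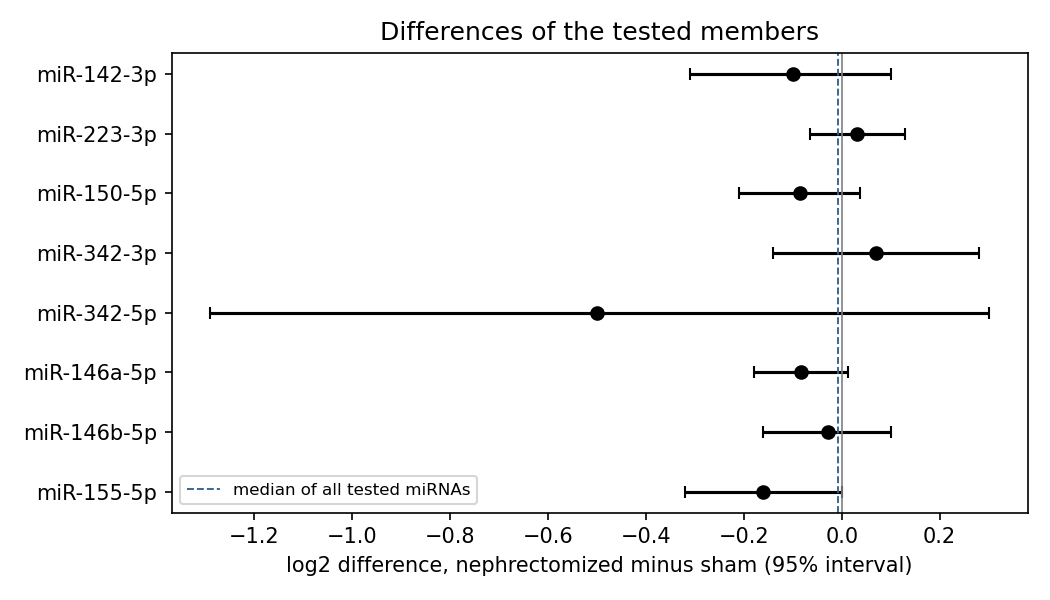
Log2 difference, nephrectomized minus sham, of the 8 tested members (points) with 95% intervals from limma (bars); the dashed line is the median of all 238 tested miRNAs at -0.0082. Of the 8 intervals, 7 include 0, and that of miR-155-5p ends at -0.00034.

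The size of the miR-155-5p difference depended on its dimmer probe. The probe of 17 bases had signals of 3.20, 3.63, 2.97 and 3.23 on nephrectomized arrays, against 4.98, 4.57, 3.97 and 5.73 on sham arrays, which do not overlap, and a difference of -0.55. The probe of 18 bases had 17.4, 19.2, 18.3 and 17.0 on nephrectomized arrays, against 20.7, 18.1, 17.5 and 19.5 on sham arrays, which overlap, and a difference of -0.073. Between spots of the same array the signal of the dimmer probe varied by a median of 39.2% of its mean, and that of the brighter by 10.7%. Negative control spots, which carry no miRNA probe, had an SD of 1.55 to 2.03 units on nephrectomized arrays and 1.48 to 1.61 on sham arrays before scaling. Their means were 1.27 to 1.77 and 1.29 to 1.78. The part of this background in the difference of the dimmer probe was not tested. With the brightest probe alone the difference of miR-155-5p was -0.069 (limma adjusted p = 0.573), and with normexp it was +0.14 (adjusted p = 0.0154), the opposite sign. The normexp offset of 50 units is larger than the signals of both probes, and its part in the +0.14 was not tested.

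**Figure D3:**
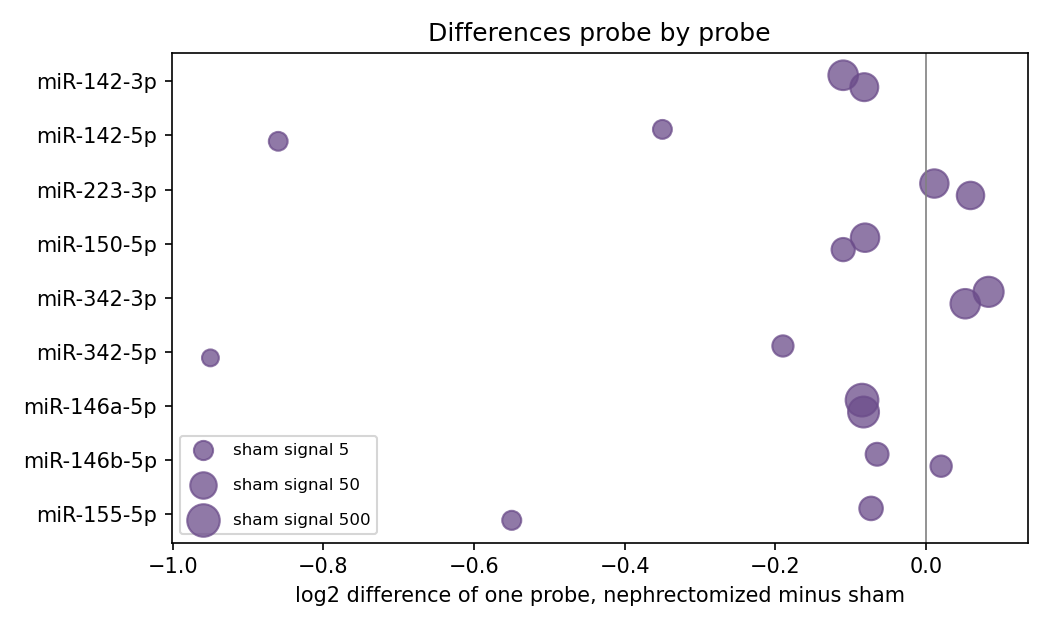
Log2 difference, nephrectomized minus sham, for each probe of each member (points; larger points have a higher mean signal on sham arrays, as the legend shows). The 2 probes of miR-342-5p that were below the floor on all arrays are left out; the 4 points at -0.35 or lower belong to the dim probes of miR-142-5p, miR-342-5p and miR-155-5p.

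Probes of the brighter members gave nearly the same difference. Those of miR-146a-5p gave -0.083 and -0.085, those of miR-142-3p -0.11 and -0.082, those of miR-150-5p -0.11 and -0.081, those of miR-342-3p +0.052 and +0.083, and those of miR-223-3p +0.059 and +0.011. The sign was the same across all probes for 7 of the 9 members, the exceptions being miR-146b-5p and miR-342-5p. These probes overlap in sequence and were read from the same RNA, so they are not independent measurements.

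Members of like brightness differed in how much they varied between arrays of a group, a spread in which rat and technique cannot be told apart. The tested miRNAs were split into 4 classes of nearly equal size by mean level. The residual SD of miR-342-3p was 0.14 on the log2 scale, where the median of its class of 60 was 0.051 and only 2 varied more. It includes nephrectomized replicate 1, at a level of 7.24 against 7.54 to 7.58 on the other arrays of its group. miR-142-3p also had 0.14, in a class of 59 with a median of 0.079, of which 8 varied more. miR-223-3p, in that same class, had 0.050, and 48 of the 59 varied more. miR-146a-5p stood at the middle of its class with 0.050.

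Across the 8 arrays, most pairs of members had a correlation above 0 once each group was centred on its own mean, but 0 pairs passed the test after adjustment. Over the 28 pairs of tested members, Pearson's r ran from -0.33 to 0.85 with a median of 0.42, and 24 were above 0. In an exact permutation test of the arrays within groups, 4 pairs had an unadjusted p under 0.05 and 0 passed after Benjamini-Hochberg adjustment over the 28. The smallest p that the 576 permutations can give is 0.00174, and a pair standing alone could pass only at that value. That 0 passed therefore says little about whether members vary together. The arrays share 1 slide and a scaling factor each, which members of an array have in common.

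The lowest p belonged to miR-150-5p and miR-146a-5p, with r = 0.71 (exact p = 0.00347, adjusted p = 0.0972) and a Spearman's rho of 0.67 (exact p = 0.0174, adjusted p = 0.243). Without the 2 arrays farthest from the median of miR-150-5p, r was 0.67. The seed relatives miR-146a-5p and miR-146b-5p had r = 0.81 (exact p = 0.0191, adjusted p = 0.267), rho = 0.71 (exact p = 0.0625, adjusted p = 0.569) and r = 0.70 without the 2 farthest arrays. miR-223-3p and miR-146b-5p had the highest r, 0.85 (exact p = 0.0451, adjusted p = 0.316), with rho = 0.79 (exact p = 0.118, adjusted p = 0.569) and 0.77 without the 2 farthest. miR-150-5p with miR-146b-5p had r = 0.73 (exact p = 0.0347, adjusted p = 0.316), rho = 0.76 (exact p = 0.0174, adjusted p = 0.243) and 0.42 without the 2 farthest. The lymphocyte members miR-150-5p and miR-342-3p had r = 0.83 (exact p = 0.0712, adjusted p = 0.326) and rho = 0.67 (exact p = 0.0885, adjusted p = 0.569), but r was 0.39 without nephrectomized replicate 1. Leaving out that array, the median r over the pairs was 0.32, and 0 of 28 passed. The permutations are fewer with 1 array less, so that a pair standing alone could not have passed after adjustment. Then 2 pairs had an unadjusted p under 0.05 in the exact permutation test. They were miR-150-5p with miR-146a-5p (r = 0.95, exact p = 0.0208) and with miR-146b-5p (r = 0.84, exact p = 0.0278).

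The arms of the miR-142 hairpin were compared after their values had been seen. miR-142-3p and miR-142-5p had r = 0.93 over the 8 arrays (exact p = 0.0104) and rho = 0.95 (exact p = 0.00347), and r was 0.997 without the 2 arrays farthest from the median of the 3p arm. This held although the 5p arm was called detected on 1 array only. The r was 0.92 without scaling (exact p = 0.0139), 0.78 when scaled by the spike-ins (exact p = 0.026) and 0.54 with normexp (exact p = 0.201). By contrast, miR-342-3p and miR-342-5p, from the other shared hairpin, had r = -0.047 (exact p = 0.894, adjusted p = 0.927), rho = -0.048 (exact p = 0.955, adjusted p = 0.983) and 0.40 without the 2 farthest arrays. The difference between these hairpins was not tested.

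**Figure D4:**
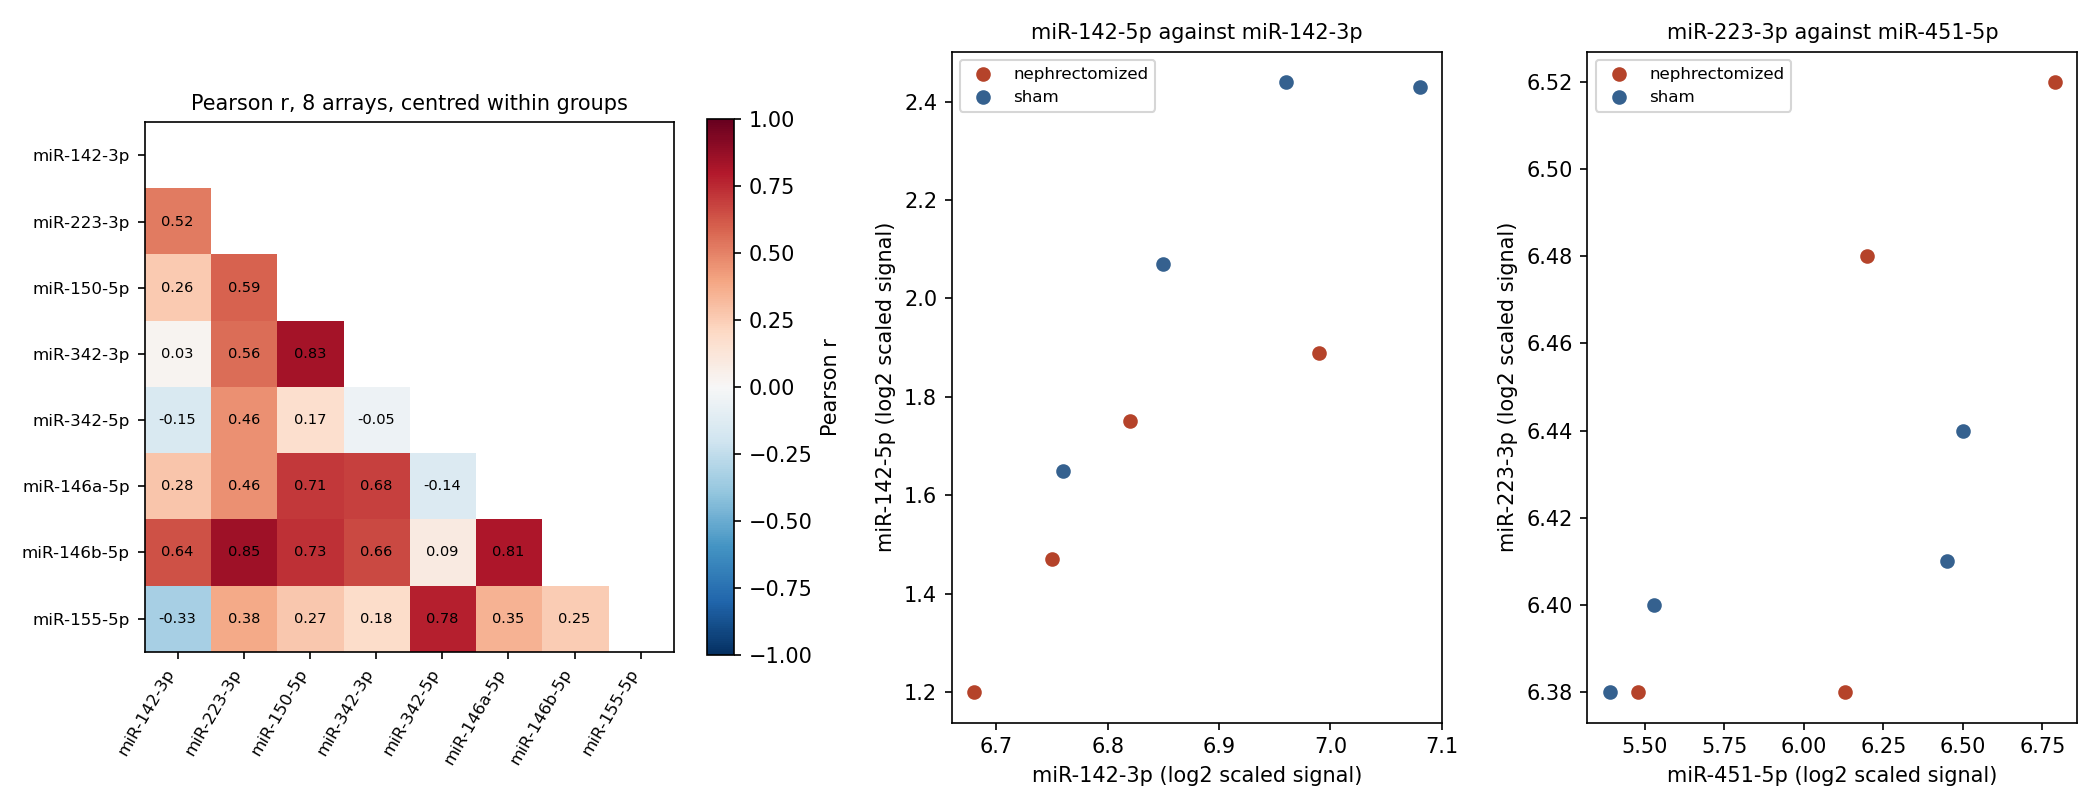
Left, Pearson r between tested members over the 8 arrays, with log2 levels centred within each group; the middle and right panels show uncentred log2 levels of miR-142-5p against miR-142-3p and of miR-223-3p against miR-451-5p, each point an array (red nephrectomized, blue sham). The r of the 28 pairs runs from -0.33 to 0.85, and both arms of miR-142 are lowest on the array of nephrectomized replicate 4.

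Residual blood can bring leukocyte miRNAs into a kidney sample, so the red-cell miRNA miR-451-5p was set beside the members, a comparison chosen after the data were seen. It had signals of 70.1, 73.4, 111 and 44.8 on nephrectomized arrays, against 90.6, 46.2, 87.5 and 41.9 on sham arrays. The groups overlapped over the whole range, which was far wider than that of any leukocyte member detected on all arrays. The other red-cell markers were detected on at most 1 array each, with miR-144-3p and miR-144-5p on 0 and miR-486 on 1 sham array. Over the 8 tested members, the highest r with miR-451-5p was that of miR-223-3p, 0.73 (exact p = 0.00694, adjusted p = 0.0556), with rho = 0.86 (exact p = 0.00347, adjusted p = 0.0278). Without the 2 arrays farthest from the median of miR-451-5p, r was 0.46. For miR-142-3p it was 0.24 (exact p = 0.599, adjusted p = 0.873), with rho = 0.36 (exact p = 0.410, adjusted p = 0.694) and -0.37 without the 2 farthest. The part of residual blood in the difference of any member was not tested.

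For each tested member, the 2 miRNAs outside the group whose centred levels ran most nearly with it were named. As the highest of 230 tested non-members over 8 arrays, these r describe likeness only. miR-142-3p was nearest to miR-455-5p (r = 0.94) and miR-140-5p (0.93), miR-150-5p to miR-324-3p (0.97) and miR-27a-3p (0.96), and miR-342-3p to miR-192-3p (0.95) and miR-324-5p (0.93). miR-223-3p was nearest to let-7a-1-3p (0.89) and miR-329-3p (0.87), and miR-342-5p to miR-26b-5p (0.93) and miR-214-3p (0.92). miR-146a-5p was nearest to miR-455-3p (0.95) and miR-196b-5p (0.93), miR-146b-5p to let-7a-1-3p (0.95) and miR-16-5p (0.93), and miR-155-5p to miR-352 (0.91) and let-7d-5p (0.90). Without the 2 farthest arrays these r ran from 0.71 to 0.97.

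The opposite strands of the other member hairpins gave no signal to compare: miR-223-5p, miR-150-3p, miR-146a-3p, miR-146b-3p and miR-155-3p were each detected on 0 of 8 arrays. Of 19 further miRNAs linked to immune cells or inflammation, 13 were tested, of which 11 had differences below 0 and 2 above, with a median of -0.036. In limma 0 of the 13 passed after adjustment, and 3 had an unadjusted p under 0.05, against 48 of all 238 (20.2%). Over those 238 the difference was below 0 for 125. The largest differences were those of miR-21-5p, a miRNA induced in injured kidney, at +0.22 ± 0.042 (SE; limma adjusted p = 0.0667), miR-29a-3p, a repressor of matrix genes, at -0.13 ± 0.044, miR-26a-5p at -0.12 ± 0.035 and miR-19b-3p, of the miR-17-92 cluster, at -0.12 ± 0.10. The Toll-like receptor-responsive miRNAs miR-132-3p and miR-147 were detected on 0 of 8 arrays, and so were miR-187-3p and miR-21-3p. miR-212-3p was detected on 1 sham array, and miR-222-3p on 3 sham arrays and 0 nephrectomized arrays. The log2 levels of miR-222-3p were nonetheless alike, at 2.37 ± 0.22 in nephrectomized and 2.32 ± 0.2 in sham kidneys (SD).

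Markers of other cells also gave 0 calls in limma. Endothelial miR-126a stood at -0.072 ± 0.037 for its 3p arm and -0.11 ± 0.051 for its 5p arm (SE), and the 4 stromal and smooth muscle markers had a median of -0.0036 and a range of -0.025 to +0.046. miR-451-5p differed by +0.18 ± 0.35. The 5 tested leukocyte markers, all of them members, had a median of -0.085. Of the tubular markers, miR-192-5p stood at +0.088 ± 0.030 (limma adjusted p = 0.138), miR-194-5p at +0.0057 ± 0.032 and miR-204-5p at -0.13 ± 0.083.

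Where the members stood relative to 0 depended on the scaling, while their place relative to other miRNAs moved less. The median of the 8 tested members was -0.084, and that of all 238 tested miRNAs -0.0082. These were -0.37 and -0.29 without scaling, -0.19 and -0.11 with the percentile over all miRNAs, -0.0065 and +0.070 when scaled by the spike-ins, and +0.058 and +0.13 with normexp. Under these 5 settings 5 or 6 of the 8 members lay below the median of all tested miRNAs, and under the other alternatives 5 to 7 did. No test was made of this count. Past the adjusted threshold of limma were 6 members and 162 of all 238 miRNAs without scaling, 2 and 19 with the percentile over all miRNAs, and 4 and 156 with normexp, 3 of the 4 with a difference above 0. The normexp offset of 50 units was added before scaling, and its part in these calls was not tested. When 1 array was left out, the median of the members ran from -0.10 to -0.049, with the value nearest 0 without nephrectomized replicate 1.

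**Figure D5:**
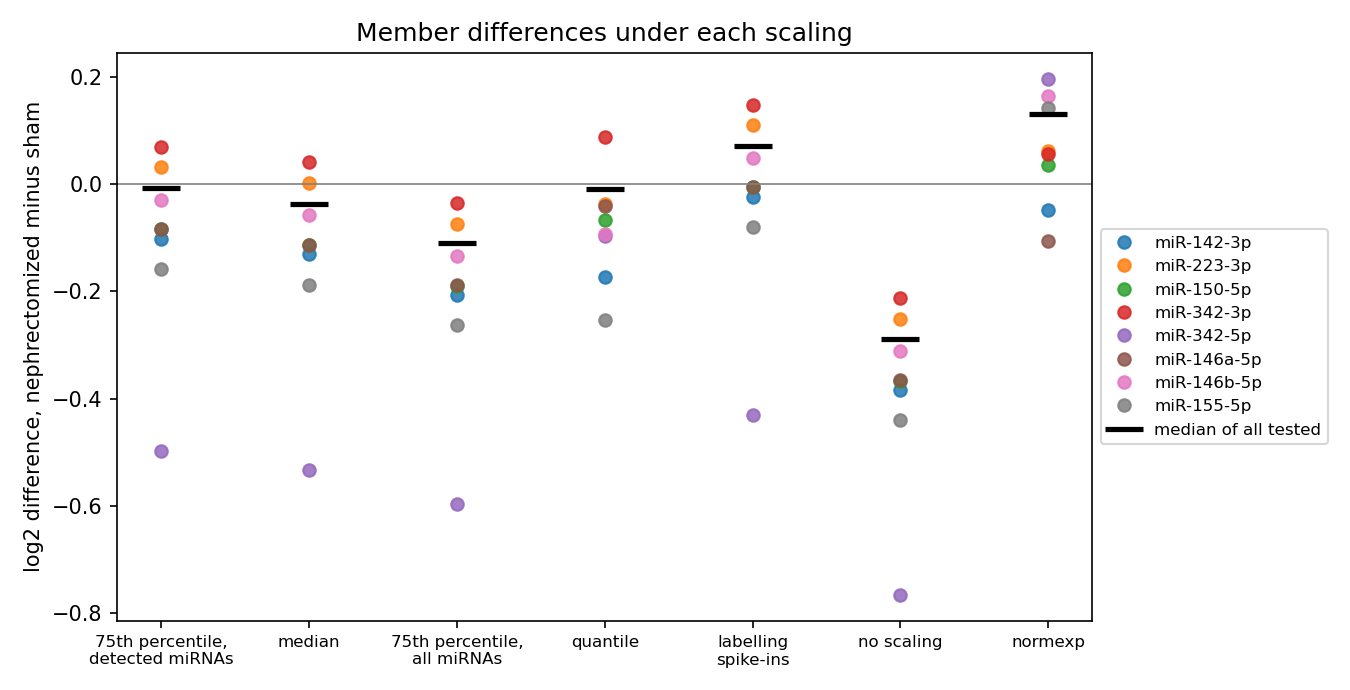
Log2 difference, nephrectomized minus sham, of the 8 tested members (coloured points) and the median of all 238 tested miRNAs (black bars) under 7 settings of scaling or background correction. The whole set moves with the setting, from a median over all miRNAs of -0.29 without scaling to +0.13 with normexp.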

How the data were processed

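RNA came from the miRNeasy Mini Kit and was labelled with Agilent's miRNA kit, per the labels' protocols. The deposited intensity of each spot is linear scanner output of Agilent Feature Extraction (version 12.0.3.1), with spatial detrending on and background correction off per the file headers. Each array had 12128 spots for 758 miRNAs. A deposited table of log2 values served as an alternative, and its per-array shift is not given in the sources used here.

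Outlier spots (8.10% to 9.01% per array) were left out, spots of a probe averaged, then probes of a miRNA. Scaling divided the signals of an array by the 75th percentile of the 214 miRNAs that all 8 arrays detected, relative to the mean percentile. Anything below 1 unit was raised to that floor, and log2 taken. The 238 miRNAs detected on at least 4 arrays were fitted with limma 3.58.1 in R 4.3.3 (lmFit, eBayes, 1 term for group, two-sided, Benjamini-Hochberg adjusted). The fit was tested on simulated data. Correlations used exact two-sided permutations of arrays within groups, 576 in all, in Python with scipy 1.17.1. There were fewer without nephrectomized replicate 1. For uncentred levels all 8 arrays were permuted across the groups instead. The number of arrays limits the precision. Named miRNAs were all members, their opposite arms, a list of 19 other immune-linked miRNAs (its 4 largest differences and any that passed), markers of other cells, and the 2 tested non-members nearest to each member by r. The members and lists were chosen with earlier results of these data known. Alternatives changed the scaling, background, probe summary, outlier spots, floor, filter, value table, variance model, replicate block and the arrays used. Normexp background correction added an offset of 50 units to every spot before scaling. Replicate numbers equal the column of the slide. Deviations from the group means had correlations of 0.042, -0.091, 0.28 and -0.24 between same-numbered arrays, so they were not treated as pairs.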

Additional observations from a re-analysis of the deposited data

Results flagged for a closer look

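For 46 named miRNAs, the log2 level of each array was set beside those of the other 3 in its group. In 9 of the 92 sets of 4 values, 1 array lay far outside the rest, where chance gives 1 in 20 (4.6) for independent sets. These sets are not independent, so 9 cannot be weighed against 4.6. The miRNAs of an array share a scaling factor, some share a cluster, and others were named for running with a member. Of the 9, 7 concern the array of nephrectomized replicate 1. miR-150-5p stood at 5.66 there, against 5.85 to 5.87 on the other nephrectomized arrays, and miR-342-3p at 7.24, against 7.54 to 7.58. miR-181b-5p stood at 5.14 (up to 5.44 on the others), and miR-196b-5p at 7.72 (7.84 to 7.85). Members of a shared cluster were low on that array too: miR-99b-5p at 7.03 (7.24 to 7.26), miR-125a-5p at 8.26 (8.40 to 8.41) and let-7e-5p at 9.79 (9.92 to 9.94). On other arrays, miR-181b-5p was high in sham replicate 1, at 5.50 (5.37 to 5.39), and miR-143-3p low in nephrectomized replicate 4, at 9.32 (9.51 to 9.54).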

How the results depend on the processing

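For the 8 tested members, alternatives left sign and call as they were in 170 cases, brought a call of the same sign in 8 and turned the sign in 12. The 170 include alternatives that cannot change a difference, such as another filter or variance model, which can change its p only. The number of members past the threshold was 2 with the 75th percentile over all miRNAs, 6 without scaling and 4 with normexp. The members' median was -0.19, -0.37 and +0.058 under these, and -0.0065 with the labelling spike-ins. Without scaling the differences were -0.38 (miR-142-3p), -0.37 (miR-150-5p and miR-146a-5p), -0.31 (miR-146b-5p), -0.44 (miR-155-5p), -0.25 (miR-223-3p) and -0.21 (miR-342-3p). With the percentile over all miRNAs they were -0.19 (miR-146a-5p), -0.26 (miR-155-5p), -0.074 (miR-223-3p) and -0.035 (miR-342-3p). Normexp gave -0.11 (miR-146a-5p), +0.036 (miR-150-5p), +0.16 (miR-146b-5p), +0.14 (miR-155-5p) and +0.20 (miR-342-5p). miR-223-3p was -0.038 with quantile normalization and -0.012 in the deposited log2 table, and miR-146b-5p +0.049 with the spike-ins and -0.067 to +0.0056 when 1 array was left out. The cause of each shift was not tested. With the replicate block 0 members passed, with limma adjusted p from 0.379 to 0.839. Of the 28 correlations, 11 passed with the spike-ins and 3 with normexp. With uncentred levels 1 passed, in a different test that permuted arrays across the groups, and those levels include the group difference. With 1 slide no slide block could be fitted. miR-342-5p was at the floor on every array when the floor was 4, and it was not among the miRNAs detected on all arrays. Brightness limits miR-142-5p, miR-342-5p, miR-155-5p and miR-146b-5p. Correlation without nephrectomized replicate 1 was added after the data were seen.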
